A study of Rattus norvegicus with 12 samples.

Results

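The genes of oxidative phosphorylation were followed in polyadenylated RNA of wild-type rat intestine. They were all rows of the deposited count table that its pathway column assigns to the rat KEGG pathway rno00190, apart from Atp12a and Atp6v0d2. Of 122 such rows this left 120 genes of 18749 in the table, and 114 of the 120 passed the filter on low counts. The series' title names adaptation of the small intestine after total colectomy. Of its 12 libraries, 4 are postoperative (postSTC, with replicates 1, 2, 5 and 7), 4 are preoperative (preSTC, with replicates 1, 5, 7 and 9), and 4 precede sham surgery (preCTC, with the same numbers as preSTC). A group sampled following sham surgery was not analysed here, and effects of surgery and of elapsed time therefore cannot be told apart. The labels give neither age nor sex, do not explain STC and CTC, and do not state whether replicates came from different animals, so that p-values reflect a spread between samples that may be technical.

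Oxidative phosphorylation takes place in the inner mitochondrial membrane. Complexes I and II pass electrons from NADH and succinate to ubiquinone, complex III hands them to cytochrome c, and complex IV passes them to oxygen. Complexes I, III and IV pump protons, and the return of those protons drives complex V, the ATP synthase. The vacuolar ATPase, which the pathway also lists, works the other way round: it spends ATP to acidify lysosomes, endosomes and secretory vesicles. The intestinal epithelium uses mitochondrial ATP for the transport of nutrients and salt.

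By symbol, the 120 genes comprise 40 of complex I, 4 of complex II, 10 of complex III, 19 of complex IV, 15 of complex V and 22 of the vacuolar ATPase. To these come 4 assembly factors of complex IV, 3 pyrophosphatases, 2 genes of the gastric proton pump and 1 row without a usable annotation. Subunits encoded in the mitochondrial genome are not among these rows and were not analysed here. The 6 genes that did not pass the filter were Atp4a and Atp4b of the gastric proton pump, the vacuolar subunit isoform Atp6v1g3, the muscle-type complex IV isoform Cox8b, and the rows LOC689271 and RGD2320734. Atp6v1g3 had 98 counts over all libraries, of which 41 were in preSTC5 and 29 in preSTC7, and the other 5 genes had 1 to 50 counts. Some rows carry misleading names. By gene identifier, RefSeq lists the row Ndufs6 as a pseudogene and LOC679739 as the protein-coding Ndufs6, LOC687508 as Cox7a1, and LOC100363268, LOC684509 and RGD2320734 as pseudogenes of Ndufs5, Ndufa3 and Uqcr10. The sources used here do not give the counting of multiply matching reads, so these rows and their parent genes are uncertain as single genes. The pseudogene rows are still counted as genes of complexes I and III, also in the sums and signs below. These were not computed without them.

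Libraries held 30095656 to 39374682 counts, and levels are given in CPM on library sizes scaled with edgeR's TMM method. In the library postSTC7, 15 seminal vesicle and prostate genes took 44.4% of all counts, so counts and medians of postSTC against preSTC are also given without it. In the other 11 libraries these genes took at most 0.0252% of the counts. Intestinal epithelial markers were detected in every library, with a sum over 12 genes of 7556 to 15118 CPM in postSTC, 14269 to 17835 CPM in preSTC and 10642 to 14922 CPM in preCTC. The sum of 12 smooth muscle markers was 8139 to 12178 CPM in postSTC, 4487 to 7046 CPM in preSTC and 13200 to 22075 CPM in preCTC. None of these markers was at 0 in all libraries. In whole-tissue RNA, fewer cells of a type and less RNA per cell cannot be told apart.

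Compared per transcript length, on the scale of deposited FPKM divided by the TMM factor, complexes IV and V held the most abundant of these transcripts. The ATP synthase catalytic subunit Atp5f1b, the highest of its complex, averaged 939 ± 154 FPKM in postSTC, 1311 ± 143 FPKM in preSTC and 1146 ± 138 FPKM in preCTC (SD, n = 4). Cox4i1, the regulatory subunit of complex IV and the highest there, averaged 965 ± 89.2 FPKM in postSTC, 1098 ± 71.2 FPKM in preSTC and 1236 ± 169 FPKM in preCTC. The highest of complex I was the accessory subunit Ndufb9, with a mean of 309 FPKM over all libraries, and the highest of complex III was the hinge protein Uqcrh, with 426 FPKM. The 4 subunits of complex II lay close together, between 159 FPKM for Sdha and 223 FPKM for Sdhb. In the vacuolar ATPase the membrane ring subunit Atp6v0c led with 251 FPKM, and the median of the 22 genes was 34.4 FPKM, against 378 FPKM for the 15 genes of complex V.

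The comparison of postSTC with preSTC addresses the change across the operation. Most respiratory chain and ATP synthase genes had a small negative log2 fold change, and most vacuolar ATPase genes a small positive one, but few passed the test. Of the 114 genes tested, 5 passed edgeR's quasi-likelihood test with the Benjamini-Hochberg adjusted p below 0.05, which is 4.39% of them, against 18% of all genes tested. The vacuolar ATPase genes Atp6v0e1, Atp6ap1 and Atp6v1c2 rose, where 11.1% of all genes did, and Cyc1 of complex III and Sdhb of complex II fell, where 6.9% of all genes did. With the replicate number as a block in the fit of all libraries, only Atp6v0e1 was called, against 11.1% of all genes. In a blocked edgeR fit of the 2 groups compared no member was called, against 0.432% of all genes (0.379% higher and 0.0523% lower), and 5 members had an unadjusted p under 0.05. DESeq2, without a block, called 13 members, 5 higher and 8 lower, against 25.1% of all genes (14.8% higher and 10.2% lower). Without postSTC7, 3 members rose (Atp6v0e1, Atp6ap1 and Atp6v1g1) and 0 fell, against 11% and 7.27% of all genes (18.3% in all). For scale, 26 of the 114 members had an unadjusted p under 0.05.

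**Figure D1:**
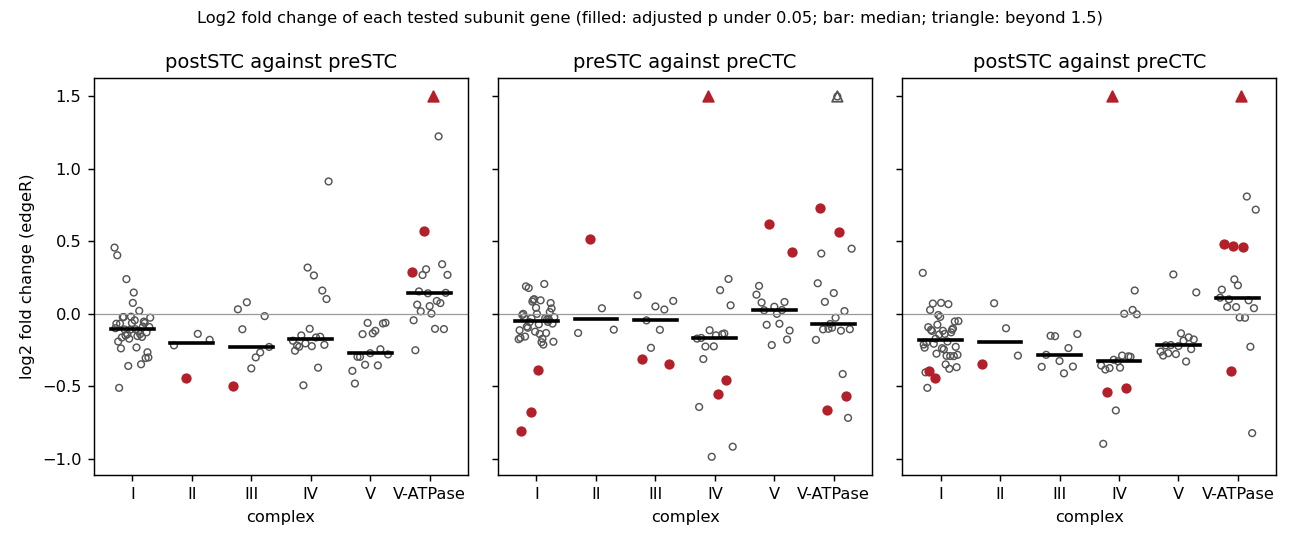
Log2 fold change of each tested subunit gene (edgeR, vertical axis) by complex (horizontal axis) in the 3 comparisons; filled points have an adjusted p under 0.05, bars are medians, and triangles lie beyond 1.5. After the operation all 15 genes of complex V lie below 0 and 17 of 21 vacuolar ATPase genes above it, while filled points are few.

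By complex, the signs in postSTC against preSTC ran as follows. In complex V all 15 genes had a negative log2 fold change (median -0.27, range -0.48 to -0.06), and none was called by edgeR. Of these 15, 6 had an unadjusted p under 0.05, and Atp5f1a, Atp5f1b and Atp5mg were called lower by DESeq2. In complex I 34 of 40 were negative (median -0.11), in complex III 7 of 9 (median -0.23), in complex IV 13 of 18 (median -0.17), and in complex II 4 of 4 (median -0.20). Of the vacuolar ATPase, 17 of 21 were positive (median 0.14). Over all genes tested the median was 0.04 and 45.9% were negative. Without postSTC7 the medians were -0.09, -0.14, -0.15, -0.10 and -0.21 for complexes I to V in that order, and 0.09 for the vacuolar ATPase, against 0.01 over all genes. Then 6 of 9 genes of complex III, 12 of 18 of complex IV and 15 of 15 of complex V were negative, and 15 of 22 vacuolar ATPase genes positive. The sign of each of these 6 medians was the same in all 22 alternative settings, although that of complex I shrank to -0.07 in the blocked fit of the groups compared. Genes of a complex share their libraries, so these signs are not independent of each other.

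The summed CPM of the 88 subunit genes of complexes I to V shows how much of the difference lay between single libraries. It was 16559, 13749, 15195 and 12463 CPM in the libraries postSTC1, postSTC2, postSTC5 and postSTC7, against 18058, 15315, 17465 and 17183 CPM in preSTC1, preSTC5, preSTC7 and preSTC9, and 17354, 19223, 18051 and 14510 CPM in preCTC1, preCTC5, preCTC7 and preCTC9. The ranges of all 3 groups overlapped, since preSTC5 and preCTC9 lay below postSTC1. For complex V alone the sum was 6464, 5289.7, 5701 and 4693 CPM in the postSTC libraries and 7569, 6239, 7159 and 6983 CPM in the preSTC libraries in the same order. Here only postSTC1 reached above the lowest preSTC library. Between libraries of the same number, postSTC1, postSTC5 and postSTC7 each had a lower sum than preSTC1, preSTC5 and preSTC7, for complexes I to V together as for complex V alone. In postSTC5 and preSTC5 the sums over complexes I to V lay close together (15195 and 15315 CPM).

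The vacuolar ATPase sum ran the other way. It was 1639.97, 1684, 1767 and 1914 CPM in the libraries postSTC1, postSTC2, postSTC5 and postSTC7, against 1607, 1533, 1569 and 1559.7 CPM in the preSTC libraries and 1707, 1597, 1703 and 1600.4 CPM in the preCTC libraries. Every postSTC library lay above every preSTC library, and postSTC overlapped with preCTC. Atp6v1c2 accounts for 173 CPM of the sum in postSTC7.

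**Figure D2:**
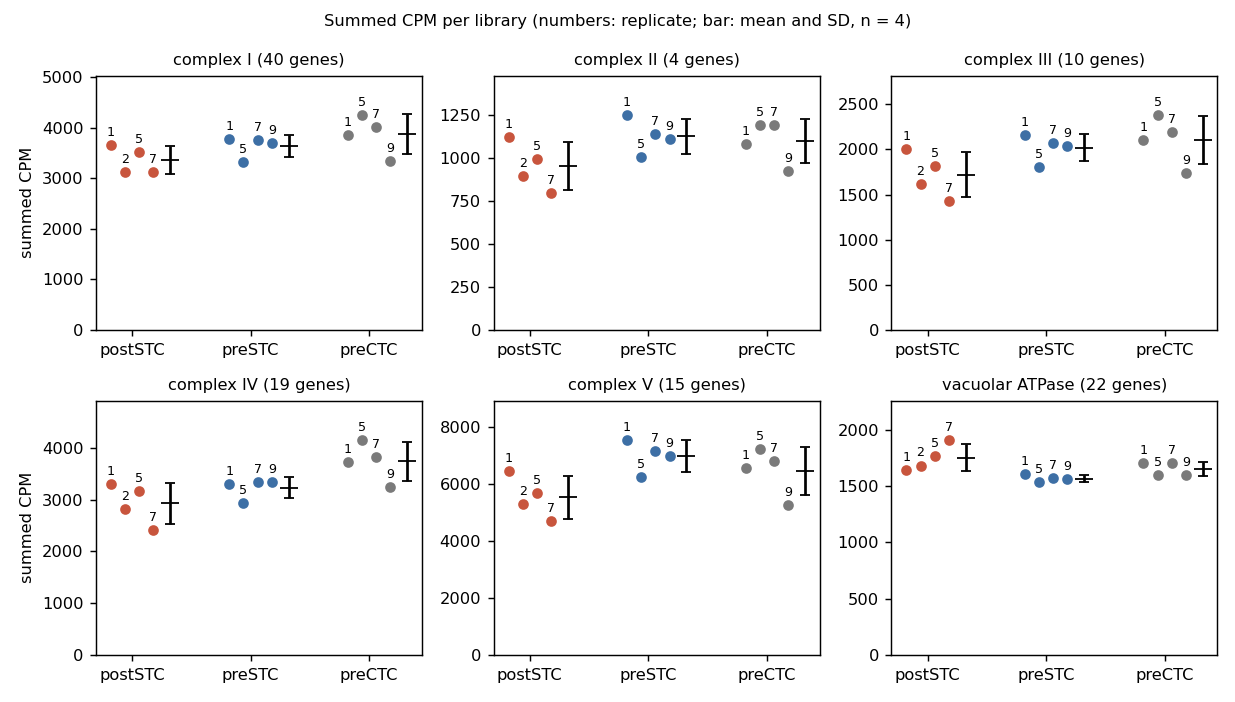
Summed CPM of the genes of each complex per library (vertical axis, from 0), with the replicate number at each point and the mean and SD of the 4 libraries beside it. The vacuolar ATPase sums of postSTC lie above those of preSTC, and the sums of complexes I to V overlap between these groups.

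Libraries of 1 group differed from each other across nearly the whole respiratory chain. Of 86 tested genes of complexes I to V, preCTC9 had the lowest level of its group for 75, preSTC5 for 71 and postSTC7 for 52, where the same libraries were lowest for 26.2%, 26.9% and 35.7% of all genes tested. The highest level of the group was in preCTC5 for 63 of the 86, in postSTC1 for 53 and in preSTC1 for 37. The same libraries were highest for 27.5%, 27.0% and 27.7% of all genes tested. The libraries lowest for these genes were also lowest in the sum of epithelial markers, with 7556 CPM in postSTC7, 14269 CPM in preSTC5 and 10642 CPM in preCTC9. At the high end, postSTC1 had the highest epithelial sum of postSTC (15118 CPM) and preSTC1 that of preSTC (17835 CPM). By contrast preCTC5, with 14082 CPM, lay below preCTC7 with 14922 CPM. Whether the share of epithelium sets the level of these genes was not tested.

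Among the called genes of the respiratory chain, Cyc1 encodes cytochrome c1, the subunit of complex III that passes electrons to cytochrome c. It had 265, 214, 220.3 and 184 CPM in the libraries postSTC1, postSTC2, postSTC5 and postSTC7, against 350.2, 268, 319.7 and 307 CPM in preSTC1, preSTC5, preSTC7 and preSTC9. No postSTC library reached the lowest preSTC library, although postSTC1 came within a few CPM of it. The log2 fold change was -0.49 (edgeR SE 0.15, adjusted p = 0.0384), with an adjusted p of 0.0738 under the replicate block and 0.0743 without postSTC7. Sdhb, the iron-sulphur subunit of succinate dehydrogenase, had 242, 194, 201 and 147 CPM in the postSTC libraries, against 299, 237, 267 and 262 CPM in the preSTC libraries. The groups overlapped at postSTC1 and preSTC5. It fell by 0.44 on the log2 scale (edgeR SE 0.14, adjusted p = 0.0491), with an adjusted p of 0.0799 under the block and 0.0804 without postSTC7. In preCTC, Sdhb had 163 to 199 CPM, and preSTC was higher than preCTC by 0.52 (edgeR SE 0.14, adjusted p = 0.0133).

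Atp5f1b, the catalytic subunit of the ATP synthase, was the nearest to the threshold among the genes named as the core of each complex. It had 1986, 1621, 1675 and 1327 CPM in the postSTC libraries, against 2573, 1968, 2379 and 2303 CPM in the preSTC libraries. Again postSTC1 overlapped with preSTC5, and the log2 fold change of -0.48 missed the threshold (edgeR SE 0.16, adjusted p = 0.0596). For the core genes Ndufs1 of complex I, Uqcrc1 of complex III and Cox4i1 of complex IV the log2 fold changes were -0.35, -0.38 and -0.18, with edgeR adjusted p of 0.0791, 0.0841 and 0.332.

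CPM ranges of postSTC and preSTC did not overlap for 10 members, 3 higher and 7 lower, against 22.1% of all genes tested (11.9% higher and 10.2% lower). Higher in all postSTC libraries were Ndufb4 of complex I, Cox7a2l, a subunit known for joining complexes III and IV into supercomplexes, and Atp6v0e1. Lower in all were the complex I subunits Ndufa9, Ndufs8 and Ndufv1, then Cyc1, the ATP synthase subunits Atp5f1a and Atp5mg, and Cox15, which makes heme A for complex IV. Only Atp6v0e1 and Cyc1 of these passed the test.

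Of the vacuolar ATPase, Atp6v0e1 encodes a small subunit of the membrane sector and Atp6ap1 an accessory protein needed for assembly of the pump. Atp6v0e1 had 55.4, 60.1, 70.9 and 94.2 CPM in the libraries postSTC1, postSTC2, postSTC5 and postSTC7, against 45.7, 47.4, 47.5 and 47.7 CPM in preSTC1, preSTC5, preSTC7 and preSTC9. The preCTC libraries held 49.0 to 52.3 CPM, so that every postSTC library lay above both other groups. The log2 fold change against preSTC was 0.57 (edgeR SE 0.14, adjusted p = 0.0159). It was 0.63 under the replicate block (SE 0.15, adjusted p = 0.0387) and 0.39 without postSTC7 (SE 0.09, adjusted p = 0.0103). In a fit of the 2 groups compared alone it missed the threshold (0.56, SE 0.16, adjusted p = 0.0539).

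Atp6ap1 had 116, 139, 145 and 135 CPM in the postSTC libraries, against 111, 107, 104 and 116 CPM in the preSTC libraries. The groups touched at postSTC1 and preSTC9, and preCTC, at 120.1 to 126 CPM, lay above all of preSTC and within the range of postSTC. The log2 fold change was 0.29 (edgeR SE 0.08, adjusted p = 0.0326), with an adjusted p of 0.124 under the block. The third called gene, Atp6v1c2, is a tissue-restricted isoform of the stalk subunit C. It had 0.776, 0.246, 0.452 and 173 CPM in the postSTC libraries, against 0.757, 0.984, 1.08 and 0.812 CPM in the preSTC libraries. The call rests on postSTC7 alone: the log2 fold change was 5.57 with it (edgeR SE 1.79, adjusted p = 0.0497) and -0.90 without it (SE 0.46, adjusted p = 0.202). In that library Atp6v1c2 made up 65.5% of the FPKM of both subunit C isoforms, against at most 1.14% in the other 11 libraries.

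**Figure D3:**
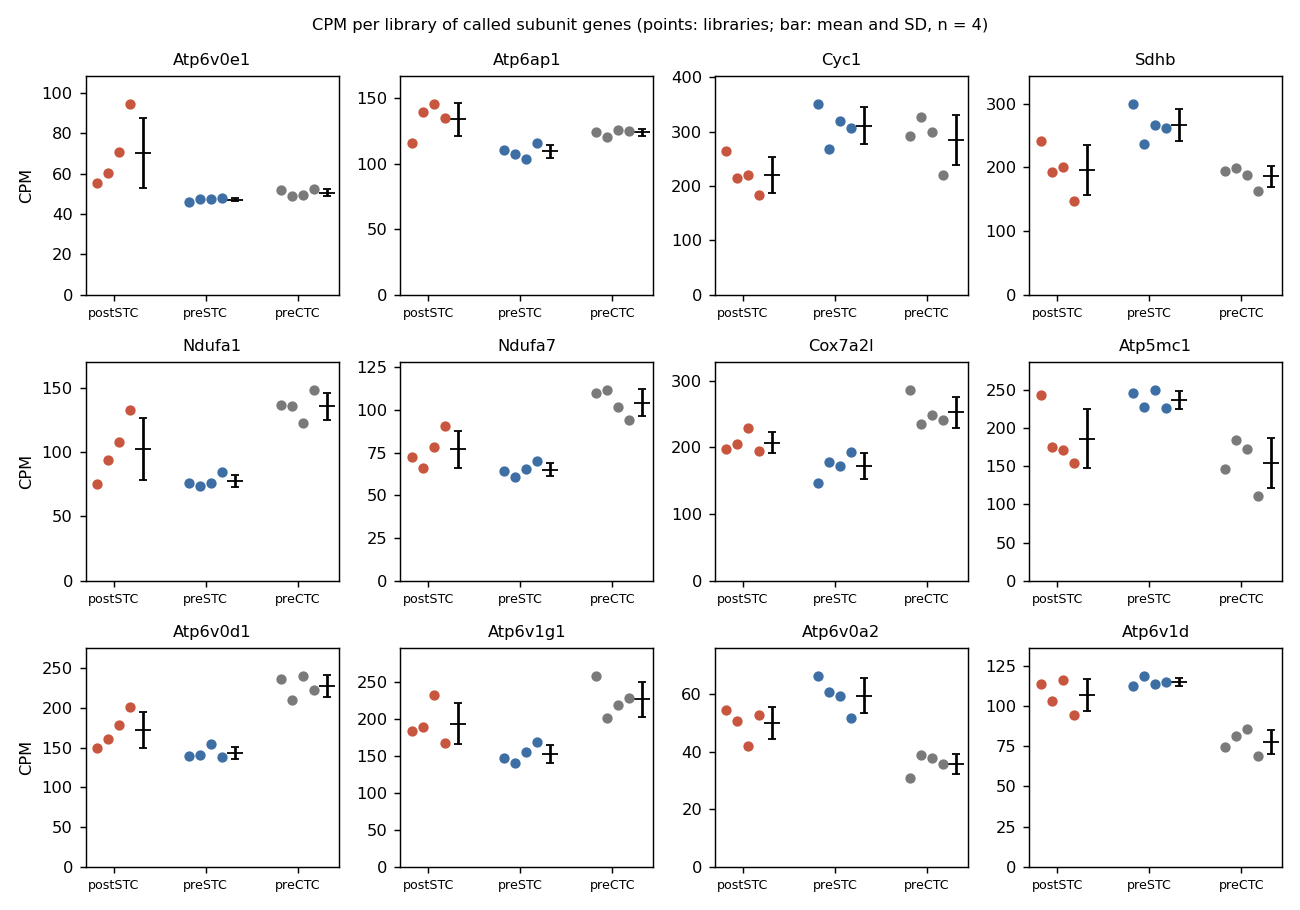
CPM per library (vertical axis, from 0) of 12 subunit genes called in at least 1 comparison, by group, with the mean and SD of 4 libraries. Atp6v0e1 lies higher in each postSTC library than in any other, and Ndufa1, Ndufa7, Atp6v0d1 and Atp6v1g1 lie lower in preSTC than in preCTC.

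The comparison of preSTC with preCTC sets side by side the samples taken before each operation. Single subunits differed clearly, with calls in both directions only in complex IV and the vacuolar ATPase. The medians of the complexes lay near 0, apart from complex IV, where 14 of 18 genes were negative. Of 114 members, 17 were called (14.9%), 7 higher and 10 lower in preSTC, against 38.7% of all genes tested (19.1% higher and 19.6% lower). The medians were -0.05, -0.04, -0.04, -0.17, 0.03 and -0.07 for complexes I to V and the vacuolar ATPase in that order, with a median of -0.02 over all genes. The medians of complexes I, II, III and V turned sign in 1 to 3 of the 22 alternatives. Of the 17 calls, 12 held in every alternative.

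Lower in preSTC were 3 subunits of complex I, 2 each of complexes III, IV and the vacuolar ATPase, and the copper chaperone Cox17. Ndufa1, a small membrane-arm subunit of complex I, had 75.6, 73.7, 75.7 and 84.7 CPM in preSTC1, preSTC5, preSTC7 and preSTC9, against 136, 136, 122 and 148 CPM in preCTC1, preCTC5, preCTC7 and preCTC9. The groups lay well apart, and the log2 fold change was -0.81 (edgeR SE 0.15, adjusted p = 0.00118). Ndufa7, another accessory subunit, had 64.3, 61.0, 65.4 and 69.9 CPM in the preSTC libraries, against 109.8, 112, 102 and 94.3 CPM in the preCTC libraries. These did not overlap either, with a log2 fold change of -0.68 (edgeR SE 0.10, adjusted p = 0.000407). The postSTC libraries, at 66.0 to 90.9 CPM for Ndufa7, lay below preCTC and overlapped with preSTC. For Ndufa1 they ran from 75.1 to 133 CPM and overlapped with both other groups.

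Cox7a2l had 147, 178, 172 and 193 CPM in the preSTC libraries, against 286, 236, 248 and 241 CPM in the preCTC libraries, and fell by 0.55 on the log2 scale (edgeR SE 0.11, adjusted p = 0.00193). Every preSTC library lay below every preCTC library. The others that fell were Cox8a of complex IV (log2 fold change -0.46), Cox17 (-0.39), Ndufb4 (-0.38), and Uqcrh (-0.35) and Uqcr10 (-0.31) of complex III, with edgeR adjusted p between 0.0072 and 0.0424. Of these 5, only Ndufb4 held its call in each alternative.

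The vacuolar ATPase was split. Atp6v0d1, the subunit that links the rotor to the membrane ring, had 140.0, 141, 154 and 138 CPM in the preSTC libraries, against 236, 209.5, 239.9 and 223 CPM in the preCTC libraries. It lay lower in every preSTC library, with a log2 fold change of -0.66 (edgeR SE 0.10, adjusted p = 0.000429). Atp6v1g1, a stalk subunit, likewise fell (-0.57, SE 0.12, adjusted p = 0.00289). Higher in preSTC were the membrane isoform Atp6v0a2 and the rotor shaft subunit Atp6v1d. Atp6v0a2 had 66.3, 60.8, 59.3 and 51.7 CPM in the preSTC libraries, against 31.0, 38.9, 37.9 and 35.7 CPM in the preCTC libraries, with no overlap (log2 fold change 0.73, edgeR SE 0.11, adjusted p = 0.000443). Atp6v1d had 112 to 118 CPM in preSTC against 68.6 to 85.5 CPM in preCTC (0.57, SE 0.09, adjusted p = 0.000577).

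The other members higher in preSTC were Cox6a2, Ppa1, Atp5mc1, Sdhb and Atp5po. The muscle-type isoform Cox6a2 stayed low, at 1.34 to 3.73 CPM in preSTC against 0.145 to 0.71 CPM in preCTC (log2 fold change 2.53, edgeR SE 0.55, adjusted p = 0.00371). Ppa1, the cytosolic pyrophosphatase, had 121 to 145 CPM in preSTC against 59.7 to 81.9 CPM in preCTC (0.85, SE 0.17, adjusted p = 0.00191). Atp5mc1, which encodes the ring subunit c of the ATP synthase, had 245, 227, 249 and 227 CPM in the preSTC libraries, against 147, 185, 173 and 111 CPM in the preCTC libraries. Its log2 fold change was 0.62 (edgeR SE 0.17, adjusted p = 0.0127), again without overlap. Atp5po, a stalk subunit of the ATP synthase, rose by 0.43 (SE 0.13, adjusted p = 0.0184) and lost its call when preSTC9 or preCTC9 was left out.

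Smooth muscle and fibroblast markers differed in this comparison. Lower in preSTC than in preCTC were 11 of 12 smooth muscle and 7 of 8 fibroblast markers, against 19.6% of all genes. Fibroblast sums were 2239.8 to 2879 CPM in preSTC and 5794 to 8766 CPM in preCTC. Of 12 epithelial markers 3 were higher and 1 was lower, against 19.1% and 19.6% of all genes. In postSTC against preSTC, 7 smooth muscle and 3 fibroblast markers rose, against 11.1% of all genes, and 1 epithelial marker fell, against 6.9%. The fibroblast sum was 2651 to 4375 CPM in postSTC. The part of these cell types in the values of single subunits was not tested.

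The comparison of postSTC with preCTC, which shares its libraries with both others, called 14 members (12.3%), 6 higher and 8 lower, against 16.6% of all genes tested (9.27% higher and 7.37% lower). Negative log2 fold changes were found for 74 of 86 tested subunits of complexes I to V, with the lowest median in complex IV (-0.32), and positive ones for 16 of 21 vacuolar ATPase genes (median 0.11). Over all genes 46.0% were negative and the median was 0.04. Without postSTC7, 5 were higher and 7 lower, 11 of these 12 being shared, against 10.8% and 8.84% of all genes (19.6% in all). The genes that rose were Atp6v1c2, Cox6a2, Ppa1, Atp6v0a2, Atp6v0e1 and Atp6v1d, of which Atp6v1c2 lost its call without postSTC7. A fit of these 2 groups alone called 3 members, against 9.44% of all genes (5.11% higher and 4.33% lower), with Atp6v0a2 and Atp6v1d higher and Ndufa7 lower. With the replicate block over all libraries 2 members were called, Atp6v1d and Ppa1, where 807 genes were higher and 592 lower of 15704. The blocked fit of these 2 groups called 0 members, where 130 genes were higher and 21 lower of 15410. Lower in postSTC than in preCTC were 4 of 12 smooth muscle, 4 of 8 fibroblast and 6 of 7 red blood cell markers. Of 12 epithelial markers 1 was higher and 2 were lower. Of all genes, 9.27% were higher and 7.37% lower. The red blood cell markers summed to 233 to 688 CPM in postSTC and 864 to 1998 CPM in preCTC. Their part in the values of the members was not tested.

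Among those that fell, Cox5b, a nuclear-encoded subunit of complex IV, had 291, 239, 269 and 213 CPM in the postSTC libraries, against 381, 391, 396 and 301 CPM in the preCTC libraries. The groups did not overlap, and the log2 fold change was -0.54 (edgeR SE 0.13, adjusted p = 0.0148). In the fit of these 2 groups alone Cox5b missed the threshold (adjusted p = 0.0615). Ppa2, the mitochondrial pyrophosphatase, had 50.2, 45.3, 47.2 and 27.9 CPM in the postSTC libraries, against 76.5, 63.6, 65.4 and 55.9 CPM in the preCTC libraries (-0.61, edgeR SE 0.18, adjusted p = 0.0345). It likewise missed the threshold in the fit of these 2 groups (adjusted p = 0.0869), and also without postSTC2 or any 1 of preSTC7, preSTC9, preCTC1, preCTC5 and preCTC7. Ppa1 and Ppa2 thus stood on opposite sides, with Ppa1 at 86.4 to 153 CPM in postSTC and 59.7 to 81.9 CPM in preCTC. The remaining ones that fell were Cox7b, Ndufa7, Atp6v0d1, Ndufa12, Sdha and Cox15, with log2 fold changes between -0.51 and -0.33 and edgeR adjusted p between 0.0139 and 0.0489.

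Several subunits exist as alternative isoforms, and their shares of the family's FPKM describe the make-up of its transcripts without reference to library size. Such shares do not measure the make-up of the protein complexes. Atp5mc1, Atp5mc2 and Atp5mc3 encode the same mature subunit c. Atp5mc1 gave 23.3 to 27.4% of the family's FPKM in postSTC, 26.1 to 28.3% in preSTC and 17.6 to 20.02% in preCTC. The share in every preCTC library lay below that in each of the other 8 libraries. Cox7a2l gave 31.2, 32.3, 32.4 and 36.6% of the subunit 7A family in postSTC, against 23.1, 29.4, 25.6 and 25.9% in preSTC and 28.3 to 35.6% in preCTC. It was higher in every postSTC library than in every preSTC library. These shares were not tested.

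In the vacuolar subunit a, which decides the membrane in which the pump sits, Atp6v0a2 held 33.1 to 38.6% in postSTC, 39.4 to 41.2% in preSTC and 28.7 to 38.9% in preCTC. Tcirg1, the isoform known from osteoclasts and lysosomes, held 10.1 to 21.2% in postSTC, 11.1 to 13.7% in preSTC and 9.59 to 15.8% in preCTC, and the kidney-type Atp6v0a4 stayed at or below 1.61% in every library. Of the subunit e FPKM, Atp6v0e1 gave 53.3, 57.8, 68.6 and 74.7% in postSTC1, postSTC2, postSTC5 and postSTC7. It gave 60.0, 63.5, 60.9 and 55.3% in preSTC and 55.2 to 64.3% in preCTC. The postSTC shares thus lay on both sides of the other groups. The hypoxia-associated Cox4i2 gave at most 0.407% of the subunit 4 FPKM, and Cox6a2 at most 1.28% of the subunit 6A FPKM.

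**Figure D4:**
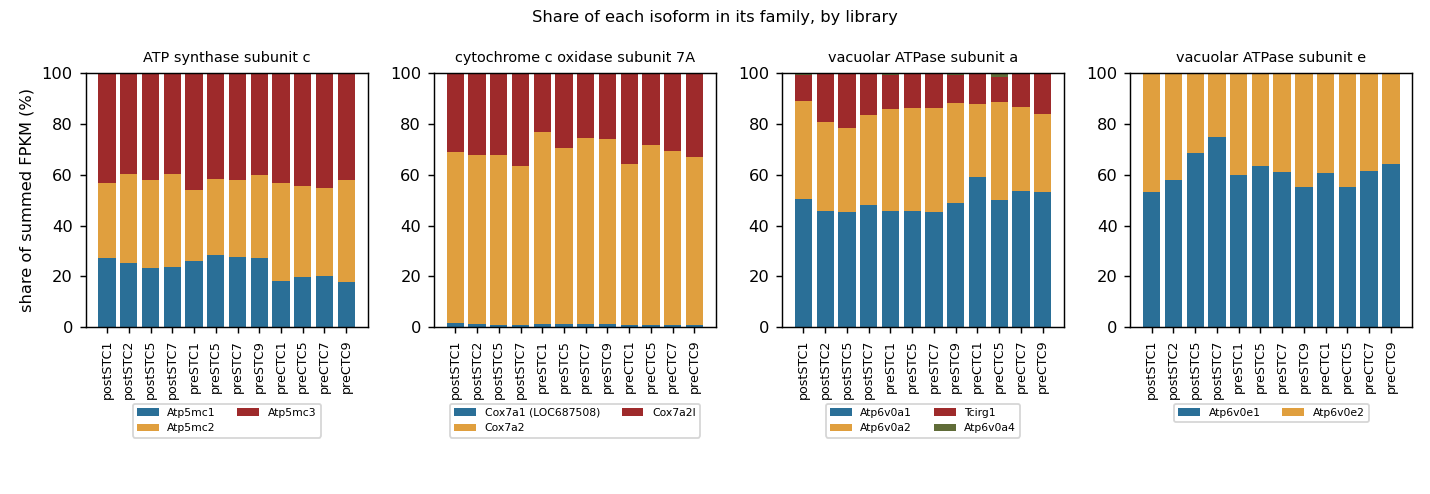
Share of each isoform in the summed FPKM of its family (vertical axis, percent) for each of the 12 libraries, for 4 families. Atp5mc1 holds the smallest share in the 4 preCTC libraries, and Atp6v0e1 the largest in postSTC7.

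The nuclear genes of these complexes are known targets of the transcription factors NRF1, GABP (an ETS factor) and YY1, and vacuolar ATPase genes of TFEB, whose sites hold the CLEAR core. Windows from 250 bases before to 50 after the start of a gene, from RefSeq on assembly GRCr8, were at hand for 100 of the 120 members and 33469 starts in all. The latter belong to 27457 genes, some with several starts, and were not limited to genes of the count table. The windows of the complexes counted here were 1 per gene, so the shares below are not of like sets. On either strand, the NRF1 motif (GCGCA, any base, GCGC) was in 19.2% of 73 windows of complexes I to V, 5.56% of 18 vacuolar ATPase windows and 4.25% of all windows. The ETS motif CCGGAAG was in 27.4%, 11.1% and 8.75% in the same order, the YY1 motif AANATGGC in 39.7%, 16.7% and 6.96%, and the CLEAR core TCACGTGA in 1.37%, 11.1% and 0.777%. The CLEAR core reads the same on both strands, and none of the motifs contains another. The windows of 5 called genes are shown, 1 of the respiratory chain that was lower and 2 vacuolar ATPase genes that were higher after the operation, and 2 genes lower in preSTC than in preCTC. They were chosen with the values known, so the motifs in them do not stand for those of all called genes. Sdhb lies at chr5:158547684-158547983 on the plus strand, Atp6v0e1 at chr10:17007107-17007406 on the minus strand, Atp6ap1 at chrX:157230993-157231292 on the plus strand, Atp6v0d1 at chr19:50357199-50357498 on the minus strand and Ndufa7 at chr7:15311196-15311495 on the plus strand (GRCr8). Capitals mark matches to the motifs.
Sdhb: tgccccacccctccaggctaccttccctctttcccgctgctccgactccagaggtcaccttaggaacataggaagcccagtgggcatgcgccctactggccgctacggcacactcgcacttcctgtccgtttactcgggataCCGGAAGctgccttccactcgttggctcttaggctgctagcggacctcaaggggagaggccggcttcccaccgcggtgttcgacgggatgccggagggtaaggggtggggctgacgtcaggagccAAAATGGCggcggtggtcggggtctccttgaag
Atp6v0e1: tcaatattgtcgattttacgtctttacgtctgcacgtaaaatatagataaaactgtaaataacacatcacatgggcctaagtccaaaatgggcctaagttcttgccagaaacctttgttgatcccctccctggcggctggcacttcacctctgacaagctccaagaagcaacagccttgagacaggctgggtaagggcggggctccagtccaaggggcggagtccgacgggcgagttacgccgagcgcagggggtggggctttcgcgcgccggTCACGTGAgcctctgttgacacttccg
Atp6ap1: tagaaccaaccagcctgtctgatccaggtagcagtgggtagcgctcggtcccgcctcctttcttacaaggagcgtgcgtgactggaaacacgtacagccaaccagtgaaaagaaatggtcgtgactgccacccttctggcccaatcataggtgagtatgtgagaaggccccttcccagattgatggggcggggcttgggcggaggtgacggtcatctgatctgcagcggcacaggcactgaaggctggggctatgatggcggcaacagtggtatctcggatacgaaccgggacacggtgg
Atp6v0d1: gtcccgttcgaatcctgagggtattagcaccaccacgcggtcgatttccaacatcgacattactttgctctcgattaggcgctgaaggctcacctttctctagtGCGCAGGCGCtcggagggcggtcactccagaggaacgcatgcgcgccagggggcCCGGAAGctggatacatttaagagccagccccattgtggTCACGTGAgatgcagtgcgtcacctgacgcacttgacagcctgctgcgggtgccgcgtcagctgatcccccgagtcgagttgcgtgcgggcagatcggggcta
Ndufa7: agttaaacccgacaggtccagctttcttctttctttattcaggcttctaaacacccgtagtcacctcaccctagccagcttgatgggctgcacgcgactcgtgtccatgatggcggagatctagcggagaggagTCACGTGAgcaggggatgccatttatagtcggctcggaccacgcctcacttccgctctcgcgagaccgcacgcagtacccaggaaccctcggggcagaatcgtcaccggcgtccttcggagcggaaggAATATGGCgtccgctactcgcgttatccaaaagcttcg

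In these windows Sdhb has an ETS and a YY1 match, Atp6v0e1 has 1 CLEAR core near its start, Atp6ap1 has no match to any of the 4 motifs, Atp6v0d1 has NRF1, ETS and CLEAR core matches, and Ndufa7 has a CLEAR core and a YY1 match. Both vacuolar ATPase windows with a CLEAR core are thus those of Atp6v0e1 and Atp6v0d1. A match describes the letters of the window and is not evidence of binding.

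Of 23 regulators of mitochondrial gene expression, 2 rose (8.7%) and 3 fell (13%) in postSTC against preSTC, where 11.1% of all genes rose and 6.9% fell. Without postSTC7, 2 rose and 4 fell, against 11% and 7.27% of all genes. Ppargc1a encodes PGC-1alpha, a coactivator of mitochondrial biogenesis. It had 26.1, 16.3, 19.8 and 11.3 CPM in the libraries postSTC1, postSTC2, postSTC5 and postSTC7, against 7.68, 9.53, 8.56 and 10.0 CPM in the preSTC libraries and 62.8, 62.9, 63.3 and 71.1 CPM in the preCTC libraries. The 3 groups did not overlap. The log2 fold change was 1.04 for postSTC against preSTC (edgeR SE 0.20, adjusted p = 0.00649) and -2.86 for preSTC against preCTC (edgeR SE 0.21, adjusted p = 2.77e-06).

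Esrrg, a nuclear receptor that works with PGC-1alpha, stood in the same order, with 3.99 to 13.5 CPM in postSTC, 2.24 to 3.24 CPM in preSTC and 25.4 to 34.9 CPM in preCTC. It rose by 1.41 in postSTC against preSTC (edgeR SE 0.33, adjusted p = 0.0131). Nrf1, which encodes the factor of the motif above, had 29.8, 30.02, 27.7 and 30.6 CPM in the postSTC libraries, against 43.8, 50.1, 43.2 and 38.6 CPM in the preSTC libraries and 31.1 to 34.6 CPM in preCTC. The preSTC libraries were the highest throughout, and the log2 fold change of postSTC was -0.57 (edgeR SE 0.09, adjusted p = 0.00253). Tfam, the packaging factor of mitochondrial DNA, had 63.3, 59.6, 60.0 and 47.2 CPM in the postSTC libraries, against 82.0, 72.4, 85.3 and 85.6 CPM in the preSTC libraries (-0.50, edgeR SE 0.13, adjusted p = 0.0199). Lrpprc, which stabilises mitochondrial transcripts, fell by 0.38 (SE 0.10, adjusted p = 0.0184). Under the replicate block 2 of the 23 rose and 2 fell, where 6.61% and 4.51% of all genes did, and Tfam lost its call (adjusted p = 0.0629).

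**Figure D5:**
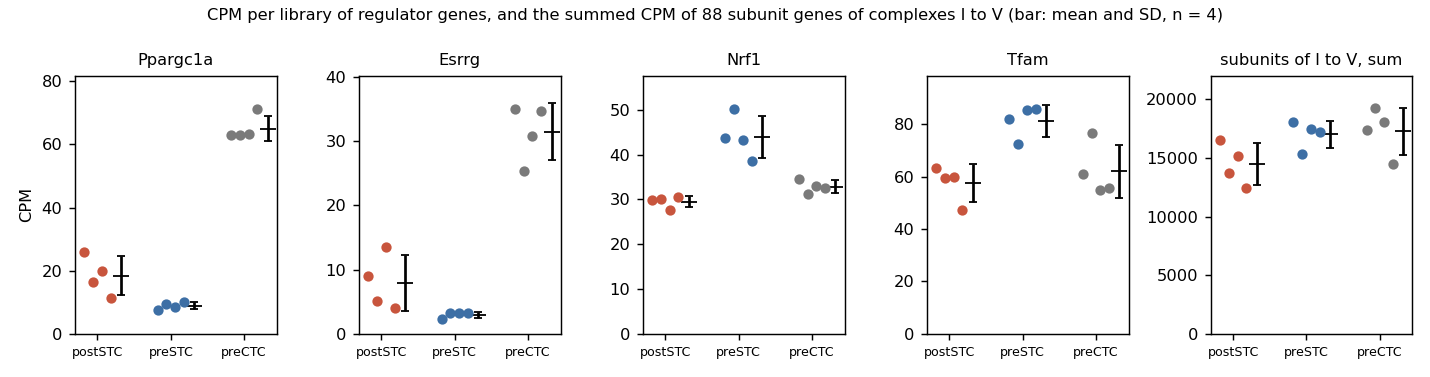
CPM per library (vertical axis, from 0) of 4 regulator genes, beside the summed CPM of the 88 subunit genes of complexes I to V, by group, with the mean and SD of 4 libraries. Ppargc1a and Esrrg differ widely between the groups, and the subunit sum overlaps between all 3.

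Of 44 assembly factors, 2 fell in postSTC against preSTC, which is 4.55% against 6.9% of all genes. Acad9, needed for complex I assembly, had 38.5, 37.2, 37.7 and 30.7 CPM in the postSTC libraries, against 62.8, 47.1, 57.1 and 52.3 CPM in the preSTC libraries, without overlap (log2 fold change -0.61, edgeR SE 0.12, adjusted p = 0.00693). Bcs1l, the chaperone that inserts the Rieske protein into complex III, fell by 0.47 (SE 0.14, adjusted p = 0.0341) and lost its call under the block (adjusted p = 0.11) and without postSTC7 (adjusted p = 0.0535). In the citric acid cycle 3 of 19 genes fell (Dlst, Idh3g and Idh2), against 6.9% of all genes. Of these, Idh3g held its call under the block and Dlst lost it without postSTC7 (adjusted p = 0.0891). Of 74 tested genes of the mitochondrial ribosome 5 fell, or 6.76%, close to the share of all genes, and edgeR called none higher. With the block 1 fell, against 4.51% of all genes, and without postSTC7 4 did, against 7.27%. In preSTC against preCTC 15 of these 74 were higher (20.3%, against 19.1% of all genes) and 4 lower (5.41%, against 19.6%).

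Lists around the vacuolar ATPase and the sugar supply of mitochondria were also counted. Of 17 lysosome genes 5 rose in postSTC against preSTC (29.4%, against 11.1% of all genes). With the replicate block 4 did, against 6.61% of all genes, and without postSTC7 7 did, against 11%. In preSTC against preCTC 8 of the 17 were lower (47.1%, against 19.6% of all genes). Ctsd, the protease cathepsin D, had 185, 235, 298 and 566 CPM in the postSTC libraries, against 128, 139.7, 144 and 113 CPM in the preSTC libraries and 285 to 339 CPM in preCTC. It lay higher in each postSTC library than in any of preSTC (log2 fold change 1.29, edgeR SE 0.28, adjusted p = 0.00959), and without postSTC7 the log2 fold change of Ctsd was 0.86 (SE 0.14, adjusted p = 0.0031). Of 12 accessory and assembly genes of the vacuolar ATPase, Oxr1 rose and Dmxl2, which helps to assemble the pump, fell. That is 1 in each direction, against 11.1% and 6.9% of all genes. Under the block Oxr1 lost its call (adjusted p = 0.135) and Dmxl2 held it (adjusted p = 0.0454). Of 16 glycolysis genes, the hexokinase Hk1 and the lactate dehydrogenase subunit Ldhb rose and the hexokinase Hk2 fell, against 11.1% and 6.9% of all genes. Ldhb lost its call under the block (adjusted p = 0.0748). Markers of macrophages, cells rich in lysosomes, summed over 8 genes to 947 to 4715 CPM in postSTC and 1565 to 3985 CPM in preSTC. In preCTC they summed to 526 to 883 CPM. Of the 8, 1 was called higher in postSTC than in preSTC, against 11.1% of all genes. Markers of osteoclast-like cells summed over 5 genes to 124 to 414 CPM in postSTC, 178 to 229 CPM in preSTC and 103 to 134 CPM in preCTC. Of 4 tested, 2 were called higher and 0 lower in postSTC than in preSTC, against 11.1% and 6.9% of all genes. In preSTC against preCTC 3 were higher and 1 lower, against 19.1% and 19.6%. The part of macrophages or osteoclast-like cells in the lysosome values was not tested.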

How the data were processed

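Polyadenylated RNA of 12 rat intestine samples was analysed, 4 per group, all labelled batch 1. The labels' protocols give TRIzol for the RNA and the VAHTS Universal V6 kit for the libraries. The submitters' processing notes name fastp, HISAT2, HTSeq and mRatBN7.2. The series' design text describes a pig genome and other tools and was not used. The deposited count table holds the authors' whole read counts per gene. The deposited FPKM values were made by the authors from the same counts, since within each gene they were proportional to the count over the library total (largest relative deviation 1.01e-15). The sources used here do not give the handling of strand, duplicates or multiply matching reads.

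In R 4.3.3 with edgeR 4.0.16, filterByExpr kept 15704 of 18749 genes, and 1 quasi-likelihood model (TMM scaling, group as the only term) was fitted to all 12 libraries. Each comparison used its two-sided F-test with Benjamini-Hochberg adjustment over all tested genes, and a gene was called at an adjusted p under 0.05. The SE is the absolute log2 fold change over the square root of F. CPM and mean ± SD cover 4 libraries per group. The test was also run on counts simulated with the same dispersion for every gene and independent libraries. That setting differs from these data, so the error rates of the test here were not measured. Alternatives used DESeq2 1.42.0 and limma 3.58.1, other scalings and filters, the replicate number as a block, and each library left out. Residuals of same-numbered postSTC and preSTC libraries correlated at 0.236, 0.158 and 0.168, each best with its own number. These numbers were therefore taken as pairs, but only in the blocked alternatives. The labels do not state whether equal numbers mark the same animal. Correlations of similar size between preSTC and preCTC, not taken as pairs, mean that the correlations cannot show it either. The main model leaves the pairing out of its SE and p-values. Between these 2 groups, postSTC2 and preSTC9 have no partner of the same number.

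Named are the called members, up to 15 a direction by size of change, 1 core subunit and the highest FPKM per complex, and subunit isoforms. Of other lists, up to 3 called genes with the largest change in postSTC against preSTC are named. Exceptions are the lysosome, with Ctsd alone, and the mitochondrial ribosome, with none. Lists of mitochondrial carriers and of cristae organisation were counted but are not reported here. Tfam, Lrpprc and members without overlap were chosen after their values were seen. Ndufa4 and Ndufa4l2 were placed with complex IV rather than by their symbol with complex I. RefSeq names matched 119 of 120 members, and promoter windows are on GRCr8, another assembly than that of the counts. The members and lists were chosen with earlier results of these data known.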

Additional observations from a re-analysis of the deposited data

Results flagged for a closer look

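Of 159 groups of 4 libraries examined, 9 held a library with a gap to the others beyond Dixon's 95% limit, where chance flags about 1 in 20 groups. The widest gap was that of Atp6v1c2, at 173 CPM in postSTC7 and 0.246 to 0.776 CPM in the other postSTC libraries. In the same library Ndufa4l2, a complex IV subunit isoform, had 4.39 CPM, against 1.49 to 1.90 CPM in the rest of postSTC. Atp6v0a4, the kidney-type subunit a, stood high in postSTC1 with 1.58 CPM and in preCTC5 with 2.03 CPM.

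In preCTC9, Cox5b had 301 CPM and Atp5f1b 1656 CPM, below 381 to 396 CPM and 2111 to 2171 CPM in the other preCTC libraries. In preCTC1, Ndufb4 had 159 CPM and the subunit C isoform Atp6v1c1 57.0 CPM, above 122 to 124 CPM and 51.2 to 52.1 CPM in the others. Atp6v0e1 had 45.7 CPM in preSTC1 and 47.4 to 47.7 CPM in the other preSTC libraries, a narrow range in which the gap is small.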

How the results depend on the processing

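For postSTC against preSTC, 3 members were higher and 2 lower. The counts were 5 and 8 with DESeq2, and 0 higher in a fit of the compared groups only, against 1072 of 15286 genes. RLE scaling and the fit without a low-count filter gave 1 lower each, against 1081 of 15704 and 1000 of 18749 genes. With the replicate block the counts were 1 and 0 over all libraries, and 0 and 0 in the compared groups. Leaving out 1 library gave 1 to 5 higher and 0 to 7 lower, with the top of both ranges (12 in all) without postSTC1. Of 15881 genes tested without postSTC1, 2215 were higher and 1469 lower. Without postSTC7, Atp6v1c2 turned to a log2 fold change of -0.90, with a highest value of 5.99 without postSTC2. None of the 5 calls held in all alternatives.

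For preSTC against preCTC the lower count of 10 was 6 without preSTC5, preSTC7, preSTC9 or preCTC5, where 2544 to 2782 of all genes were lower. It was 13 without postSTC7, the highest with 1 library left out, against 3708 of 15896 genes. The count was 15 in a fit of the compared groups only, against 3891 of 15339 genes. Of the 17 calls in either direction, 12 held in all 22 alternatives. For postSTC against preCTC the 6 higher and 8 lower became 2 and 1 in the compared groups only. With the replicate block they were 2 and 0 over all libraries, against 807 and 592 of 15704 genes. In the compared groups the block gave 0 and 0, against 130 and 21 of 15410 genes. The lower count of this comparison was 19 with DESeq2 and 19 with upper-quartile scaling. It was 2 to 17 with 1 library left out, where the higher count had a low of 3. The lowest of these lower counts came without postSTC2, preCTC1 or preCTC7 and the highest without preCTC9. Of all genes, 1586 of 15513 were lower with DESeq2 and 895 of 15866 without preCTC9. The causes were not tested. Upper-quartile scaling gave 1248 higher and 1464 lower of all genes in this comparison, against 1455 and 1157.

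The replicate numbers of preCTC were not taken as pairs, although the block over all libraries joins them with the same numbers of the other groups. Blocked values over all libraries, also for postSTC against preSTC, therefore rest on preCTC as well. Against preSTC, same-number correlations were 0.222, 0.171 and 0.145 for replicates 1, 7 and 9, each best with its own number, and -0.03 for replicate 5, and against postSTC they were -0.02 to 0.220. For preSTC against preCTC the block gave 7 higher and 8 lower over all libraries, and 8 and 13 in the compared groups. Of all genes it called 2841 and 2888 of 15704, and 3347 and 3688 of 15339, in the same order. Atp4a, Atp4b, Cox8b and LOC689271 had at most 7 counts in all libraries together, so differences in them were not detectable at this depth.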
